A study of Mus musculus with 6 samples.

Results

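The genes described here are 10 genes of the Notch pathway: the receptors Notch1, Notch2, Notch3 and Notch4, the ligands Jag1, Jag2 and Dll4, and the transcription factors Hes1, Hey1 and Heyl, whose transcription Notch raises. Their members were every probe set on the array that the platform annotation gives exactly 1 gene symbol among these names, which were 21 of 45101 probe sets. Whole uterine RNA was measured on 1 Affymetrix mouse expression array for each of 3 Ihhd/d and 3 Ihhf/f samples. In Ihhd/d uteri (PRcre/+ Ihhf/f), floxed alleles of Indian hedgehog (Ihh), which encodes a Hedgehog ligand made by the uterine epithelium, were deleted by a Cre recombinase expressed from 1 progesterone receptor allele. Ihhf/f uteri carried the floxed alleles and are labelled as the control. Each of the 6 samples dates from day -1 of an artificial decidual response, in which hormones and a mechanical trigger make stromal cells of the endometrium differentiate without an embryo. The labels give neither the age of the mice nor the hormones, nor whether samples are separate mice, so p-values rest on a spread between samples that may be technical. The Cre acts in cells that express the progesterone receptor, and the Cre allele goes with the deletion, so their effects cannot be told apart. SmoM2, another mouse model, appears as the sample source in both groups and was not used, since titles, genotypes and the design text give the Ihh genotypes.

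Notch receptors are single-pass membrane proteins that are bound by Jagged or Delta-like ligands on a neighbouring cell. Ligand binding lets an ADAM protease and then gamma-secretase cut the receptor, and the released intracellular domain enters the nucleus, where it joins the DNA-binding protein RBPJ and Mastermind co-activators and switches on Hes and Hey genes, which encode repressors. In blood vessels Dll4 and Notch4 are made mainly by endothelial cells and Notch3 by pericytes and vascular smooth muscle, and in the mouse uterus Notch1 and RBPJ act in the stroma during decidualization.

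The promoter windows of the 3 ligand genes are shown because Dll4 had the largest difference of all members and the Jagged genes serve as its closest comparison. They come from RefSeq (GRCm38.p6), run from 250 bases before to 50 bases after the start of the gene on the gene's own strand, and lie at chr2:119325534-119325833 (plus strand) for Dll4, chr2:137116471-137116770 (minus strand) for Jag1 and chr12:112929446-112929745 (minus strand) for Jag2. Capitals mark the motifs found.
Dll4: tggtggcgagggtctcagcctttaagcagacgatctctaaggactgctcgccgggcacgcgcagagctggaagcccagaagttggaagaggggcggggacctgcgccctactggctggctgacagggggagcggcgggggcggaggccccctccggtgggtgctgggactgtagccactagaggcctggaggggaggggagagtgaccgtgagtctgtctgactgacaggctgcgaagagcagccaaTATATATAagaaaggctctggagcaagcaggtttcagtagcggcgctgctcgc
Jag1: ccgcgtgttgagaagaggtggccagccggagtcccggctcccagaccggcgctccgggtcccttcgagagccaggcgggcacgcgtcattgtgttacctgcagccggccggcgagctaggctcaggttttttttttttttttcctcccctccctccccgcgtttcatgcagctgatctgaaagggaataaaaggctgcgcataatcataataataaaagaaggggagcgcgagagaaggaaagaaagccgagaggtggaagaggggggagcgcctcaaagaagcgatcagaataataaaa
Jag2: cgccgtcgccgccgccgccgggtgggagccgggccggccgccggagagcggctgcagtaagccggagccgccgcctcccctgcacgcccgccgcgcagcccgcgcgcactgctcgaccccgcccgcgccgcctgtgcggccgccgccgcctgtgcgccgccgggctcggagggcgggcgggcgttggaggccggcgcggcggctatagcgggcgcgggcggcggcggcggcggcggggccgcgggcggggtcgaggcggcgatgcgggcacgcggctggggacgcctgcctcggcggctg
The windows were searched on both strands for the GLI motif TGGGTGGTC, the RBPJ core TGGGAA and the TATA motifs TATAAA and TATATA, the last added after the Dll4 window had been read. The RefSeq table held windows for 7 of the 10 members, all but Hes1, Hey1 and Heyl. GLI and RBPJ letters were found in 0 of these 7, against 0.253% and 25.6% of all 32851 promoter windows of the same length. Dll4 alone of the 7 held TATATA, as overlapping copies at positions 248 to 255 of its window, across the start of the gene. TATATA was in 5.67% of all windows, and its presence in Dll4 was fixed in advance, since it was picked from that window. TATAAA was in 0 of 7, against 13.6% of all windows. The Dll4 window was 63.7% G or C, the Jag1 window 55.7% and the Jag2 window 86.0%, and the median of all windows was 52.7%.

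The Hedgehog readouts that check the labels were lower in Ihhd/d uteri: Gli1 by a log2 difference of -2.53 (limma adjusted p = 0.000492) and the brightest Ptch1 probe set by -1.65 (adjusted p = 0.00146), while the single Ihh probe set, which may lie outside the deleted part, differed by -0.43 (adjusted p = 0.164). All 9 endometrial stroma markers lay at or above the 91.1 percentile of all probe sets by mean log2 intensity, all 7 smooth muscle markers at or above 98.7 and all 10 endometrial epithelium markers at or above 71.2. Of the stroma markers, 1 was higher (Dcn, 0.24) and 1 lower (Vim, -0.37) in Ihhd/d uteri, which is 22.2%, against 2.14% of all tested probe sets. At an unadjusted p under 0.05, 6 of 9 passed (3 higher, 3 lower), against 22.9% of all tested. Of the smooth muscle markers, 1 was lower (Actg2, -0.25) and 0 higher, which is 14.3%. The part of these differences in the results below was not tested. Markers of tissues outside the uterus also differed between arrays. The summed intensity of 7 pancreas markers was 63241 in Ihhd/d replicate 2, against 652 and 785 in the other Ihhd/d and 778 to 2264 in Ihhf/f samples. That of 8 skeletal muscle markers was 2051 to 2647 in Ihhd/d samples, against 5085, 5391 and, in Ihhf/f replicate 3, 13319. Most of the sum in Ihhf/f replicates 1 and 2 was Acta1, at 4164 and 3559, against 1162 to 1593 in Ihhd/d samples. Mylpf read 83.9, 88.5 and 2075 in Ihhf/f replicates 1 to 3, against 73.7 to 86.6 in Ihhd/d samples. Tnni2 read 613, 790 and 1754, against 361 to 470. The sum of 6 adipocyte markers was 10388 to 24506 in Ihhd/d and 2672 to 13147 in Ihhf/f samples. The part of these tissues in the results below was not tested. Ihhf/f replicate 2 had a median intensity of 142.5 over all probe sets, against 121.4 to 125.8 in the other arrays, and the lowest array weight, 0.24, against 0.80 to 2.02.

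No member of the Notch set passed the test between genotypes. Of the 21 probe sets, 19 from all 10 genes were tested, after the lowest 25% of all probe sets by mean intensity had been left out, and the other 2 are dim Notch4 probe sets. By limma with Benjamini-Hochberg adjustment over all 33777 tested probe sets, 0 of 19 were higher and 0 lower in Ihhd/d uteri at an adjusted p under 0.05, against 1.03% of all tested probe sets called higher, 1.11% called lower and 2.14% called in either direction. At an unadjusted p under 0.05, 3 of 19 passed (1 higher, 2 lower), against 22.9% of all tested. Both groups were free of overlap for 5 of 19 probe sets, 2 with every Ihhd/d array above and 3 with every Ihhd/d array below the Ihhf/f arrays, which is 26.3%, against 31.0% of all tested. The median log2 difference, Ihhd/d minus Ihhf/f, was -0.082 over the members and -0.041 over all tested probe sets, and their median sizes without sign were 0.19 and 0.17. The 95% interval of the difference lay within a 2-fold change in either direction for 17 of 19 members and within 1.5-fold for 13. Of all 33777 tested probe sets, 32062 lay within 2-fold and 23219 within 1.5-fold, so such intervals are common over the whole array. In bulk tissue, fewer cells of a type and less RNA per cell cannot be told apart.

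**Figure D1:**
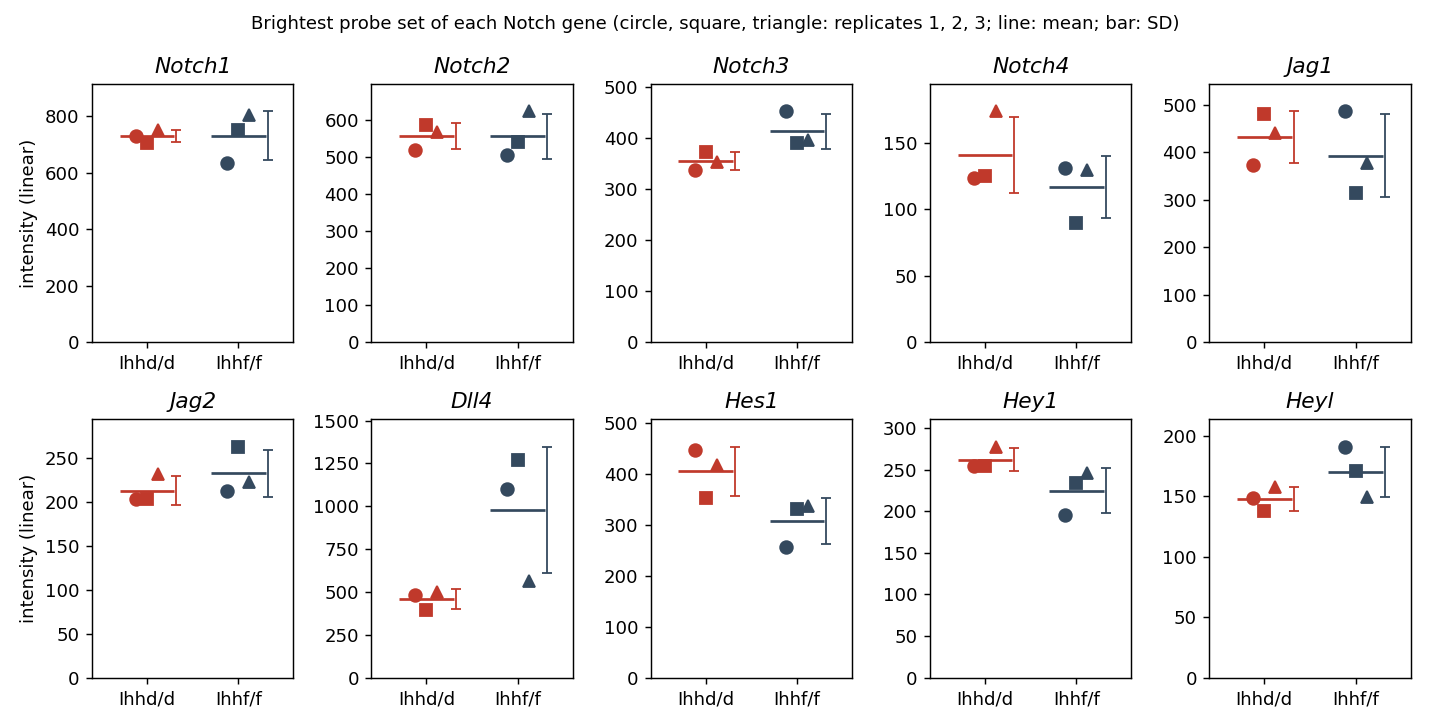
Intensity on a linear scale (vertical axis) of the brightest probe set of each of the 10 Notch genes in the 3 Ihhd/d (left, red) and 3 Ihhf/f (right, blue) arrays, with circle, square and triangle for replicates 1, 2 and 3, a line at the mean and a bar of 1 SD. The Dll4 arrays of Ihhd/d uteri sit between 393 and 501, below all 3 Ihhf/f arrays, of which replicate 3 is lowest at 563.

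The receptors Notch1 and Notch2 had close to equal means in both genotypes. The brighter Notch1 probe set read 732, 707 and 751 in Ihhd/d replicates 1 to 3, against 635, 752 and 804 in Ihhf/f. The Ihhd/d arrays lay inside the Ihhf/f range, and the log2 difference was 0.0053 (95% interval -0.22 to 0.23, adjusted p = 0.979). The dimmer Notch1 probe set differed by -0.0056 (-0.27 to 0.26, adjusted p = 0.981). Notch2, a receptor of the same family that Jagged ligands also bind, read 518, 585 and 567 in Ihhd/d uteri, against 504, 540.0 and 622 in Ihhf/f uteri for its brighter probe set. These groups overlapped too, with a difference of 0.0064 (-0.23 to 0.24, adjusted p = 0.975). The dimmer Notch2 probe set, at the 34.4 percentile of all probe sets, read 76.7, 78.6 and 63.9 in Ihhd/d uteri, against 88.0, 147 and 98.2 in Ihhf/f uteri. There every Ihhd/d array was below every Ihhf/f array, with a difference of -0.57 (-1.01 to -0.14) that did not pass the test (adjusted p = 0.142), so the Notch2 probe sets disagree.

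Notch3, the receptor of vascular mural cells, differed by about the same amount at both of its probe sets. The brighter one read 338, 373 and 353 in Ihhd/d uteri, against 453, 391 and 397.5 in Ihhf/f uteri, with no overlap. Its log2 difference was -0.22 (-0.45 to 0.01, adjusted p = 0.234), and that of the dimmer one, whose groups overlapped, was -0.21 (-0.50 to 0.09, adjusted p = 0.357). Neither passed the test, and both were negative in all 17 alternative settings. Settings that change only the filter, the variance model or the replicate block leave a difference, and so its sign, as it was. Of 7 pericyte and vascular mural markers, 0 passed the test, with a median difference of 0.11, and their summed intensity was 8280 to 9933 in Ihhd/d and 7713 to 8873 in Ihhf/f samples. At an unadjusted p under 0.05, 3 of 7 passed (2 higher, 1 lower), against 22.9% of all tested probe sets. None of the 7 markers was at 0, and the dimmest lay at the 44.0 percentile.

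Notch4, the receptor of endothelial cells, was tested by its brightest probe set. It read 124, 126 and 174 in Ihhd/d uteri, against 131, 89.9 and 129.5 in Ihhf/f uteri, with overlap and a difference of 0.27 (-0.16 to 0.71, adjusted p = 0.399). The 2 other Notch4 probe sets were among the dimmest 25% and were not tested, with differences in mean log2 intensity of 0.10 and -0.0097.

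Among the ligands, Dll4 had the largest difference and the Jagged genes had small ones. Dll4, the Delta-like ligand that restrains the sprouting of new vessels, read 479.9, 393 and 501 in Ihhd/d uteri, against 1103, 1268 and 563 in Ihhf/f uteri at its brighter probe set. Every Ihhd/d array was below every Ihhf/f array, but Ihhf/f replicate 3 lay close to the Ihhd/d arrays and far from the other Ihhf/f arrays. The means were 458 ± 57.1 in Ihhd/d and 978 ± 369 in Ihhf/f uteri (SD, n = 3 each), and the geometric means differed 2.03-fold, lower in Ihhd/d, a log2 difference of -1.02 (SE 0.26, 95% interval -1.61 to -0.44). With a limma adjusted p of 0.0818 this did not pass the test. The dimmer Dll4 probe set read 97.8, 102 and 98.4 in Ihhd/d uteri, against 149, 175 and 95.04 in Ihhf/f uteri. Here Ihhf/f replicate 3 was the lowest of all 6 arrays and the groups overlapped, with a difference of -0.45 (-0.91 to 0.02, adjusted p = 0.231).

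The Dll4 call depended on which arrays entered the fit and how they were weighted, and the brighter probe set passed in 4 of 17 alternatives. Without Ihhf/f replicate 3, the array with the highest sum of skeletal muscle markers, both Dll4 probe sets passed the test, with differences of -1.38 (limma adjusted p = 0.00142) and -0.70 (adjusted p = 0.0165). Without both this array and Ihhd/d replicate 2 the brighter one passed at -1.27 (adjusted p = 0.000498) and the dimmer one read -0.72 (adjusted p = 0.0537). Leaving out Ihhf/f replicate 3 also called 10.6% of all tested probe sets, and leaving out both arrays 5.86%, against 2.14% as reported. Calls in these fits are thus more frequent over the whole array. Without any other array the brighter probe set did not pass, with differences of -0.79 to -1.09 and adjusted p of 0.177 to 0.197. With array weights it passed at -0.98 (adjusted p = 0.0407), in a fit that called 4.18% of all tested probe sets. The direction was negative for the brighter probe set in all 17 alternatives and for the dimmer one in all 16 that tested it. Changes of the filter, the variance model or the replicate block cannot change this direction, so these counts overstate how often it was put to a test.

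**Figure D2:**
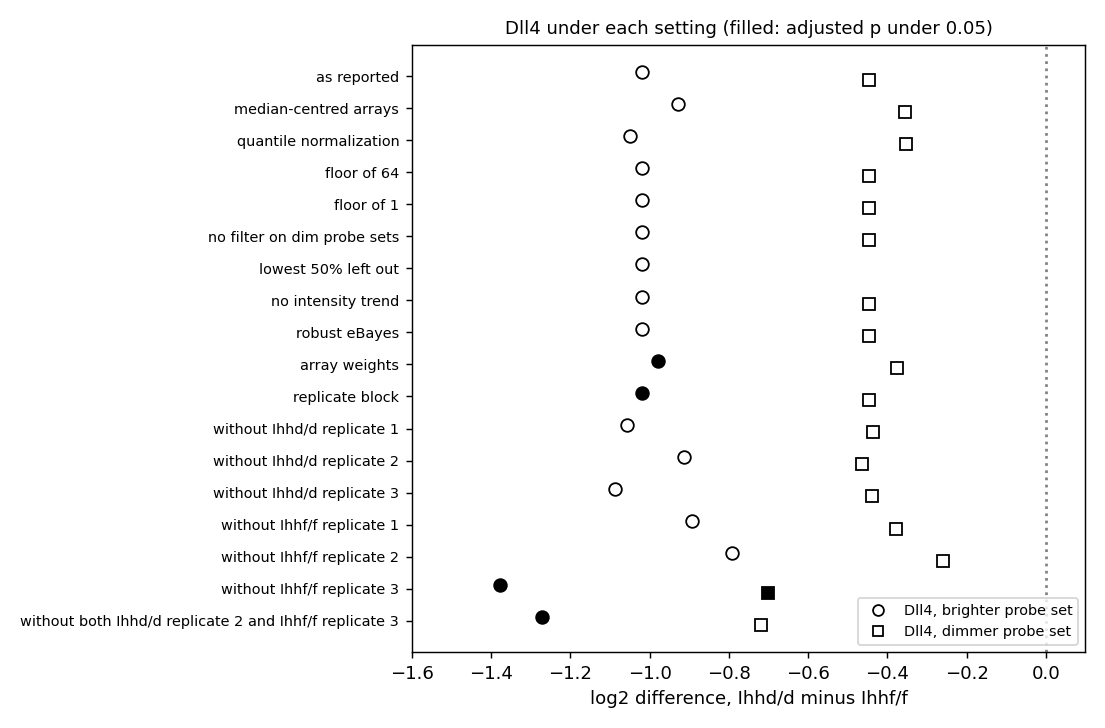
Log2 difference of both Dll4 probe sets (horizontal axis, Ihhd/d minus Ihhf/f; circles for the brighter, squares for the dimmer one) under the reported fit and each alternative setting (vertical axis), filled where the adjusted p was under 0.05. All points lie left of 0, and the points farthest left for the brighter probe set, at -1.38 and -1.27, are the fits that leave out Ihhf/f replicate 3.

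Endothelial markers were set beside Dll4. Of 10 markers, 1 was lower and 0 higher in Ihhd/d uteri, which is 10%, against 2.14% of all tested probe sets called in either direction. At an unadjusted p under 0.05, 3 of 10 passed (2 higher, 1 lower), against 22.9% of all tested. The 10 markers had a median log2 difference of 0.042, and their summed intensity was 5957 to 6792 in Ihhd/d and 6078 to 6693 in Ihhf/f samples. None of them was at 0, and the dimmest lay at the 74.6 percentile. The marker that passed was Cdh5, which encodes the adhesion protein VE-cadherin, and it is named with Vwf and Cldn5 after their values were seen. Cdh5 read 725, 621 and 772 in Ihhd/d uteri, against 1096, 1085 and 951 in Ihhf/f uteri. The groups did not overlap, and the difference was -0.57 (adjusted p = 0.0275). That call was lost without Ihhd/d replicate 1 (0.0934), Ihhd/d replicate 2 (0.0743), Ihhf/f replicate 1 (0.119) or Ihhf/f replicate 2 (0.0907), with median-centred arrays (0.0838) and without an intensity trend (0.0742). Vwf, the von Willebrand factor gene, differed the other way without passing, by 0.63 (adjusted p = 0.0730). Vwf passed in 3 of 17 alternatives, among them without Ihhf/f replicate 3, at 0.76 (adjusted p = 0.0149), and without both this array and Ihhd/d replicate 2, at 0.68 (0.0408). Cldn5, which encodes the tight junction protein claudin-5, differed by 0.49 (adjusted p = 0.203) and passed without Ihhf/f replicate 3, at 0.72 (0.0269).

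**Figure D3:**
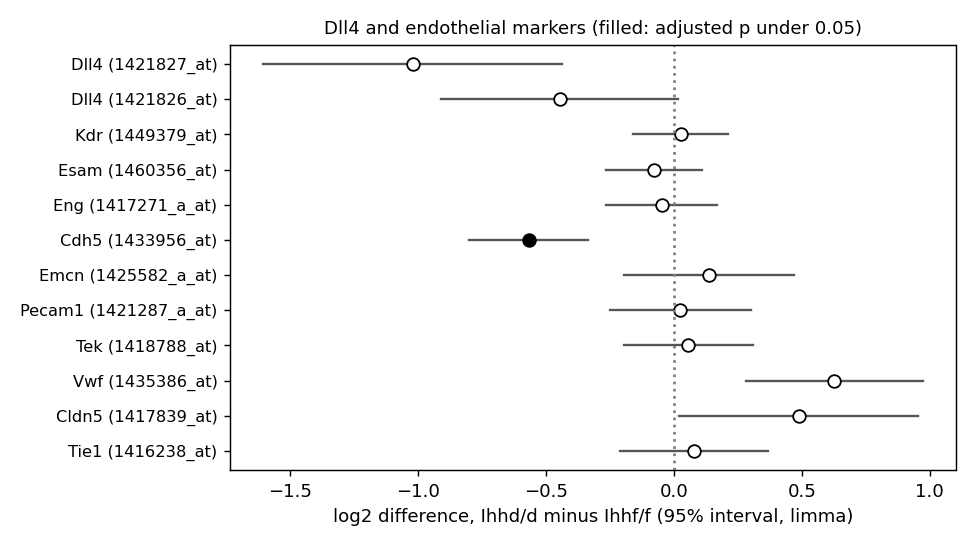
Log2 difference with its 95% interval (horizontal axis, Ihhd/d minus Ihhf/f, limma) for both Dll4 probe sets and the brightest probe set of 10 endothelial markers (vertical axis), filled where the adjusted p was under 0.05. Cdh5, at -0.57, is the filled point, and Kdr, Esam, Eng, Pecam1, Tek and Tie1 lie close to 0.

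Jag1, a Notch ligand of epithelium, stroma and vessels, read 372, 480.1 and 441 in Ihhd/d uteri, against 486, 313 and 377 in Ihhf/f uteri at its brightest probe set. The groups overlapped widely, and the difference was 0.15 (-0.22 to 0.52, adjusted p = 0.580). Its other probe sets differed by 0.19 (-0.42 to 0.79, adjusted p = 0.686) and -0.14 (-0.46 to 0.18, adjusted p = 0.555), so their signs did not agree. Jag2, the second Jagged ligand, read 203, 203 and 231 in Ihhd/d uteri, against 212, 262 and 222 in Ihhf/f uteri. It differed by -0.13 (-0.41 to 0.15, adjusted p = 0.540) at this probe set and by -0.082 (-0.35 to 0.18, adjusted p = 0.683) at the dimmer one, with overlap at both. All 5 Jagged intervals lay within a 2-fold change, as did 32062 of all 33777 tested ones. The intervals of the brighter Dll4 and the dimmer Notch2 probe set reached beyond it.

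The target genes did not share a direction. Hes1, a repressor that Notch induces in many tissues and that other signals also induce, read 446, 352 and 417 in Ihhd/d uteri, against 256, 330.3 and 336 in Ihhf/f uteri. Every Ihhd/d array was above every Ihhf/f array, with means of 405 ± 48.0 in Ihhd/d and 308 ± 44.6 in Ihhf/f uteri (SD, n = 3 each), and the geometric mean was 1.32-fold higher in Ihhd/d. The log2 difference of 0.40 (SE 0.14, 95% interval 0.09 to 0.71) did not pass the test (limma adjusted p = 0.149). It was positive in all 17 alternatives, some of which cannot change its sign. It passed in 0 of them, with adjusted p between 0.0695 and 0.394. Of 10 endometrial epithelium markers, 5 had an unadjusted p under 0.05, all 5 higher, against 22.9% of all tested probe sets in either direction. Of all 10 markers, 0 passed the test and 9 had a positive difference, with a median of 0.33. Their summed intensity was 15276 to 17370 in Ihhd/d and 11110 to 16180 in Ihhf/f samples, and their part in the Hes1 difference was not tested. Hey1, a related repressor of the vascular and stromal Notch response, read 254, 255 and 278 in Ihhd/d uteri, against 195, 234 and 246 in Ihhf/f uteri. These groups did not overlap either, and the difference of 0.23 (-0.05 to 0.50) did not pass (adjusted p = 0.289). Heyl, the member of the Hey family tied to Notch3 in vascular smooth muscle, read 148, 138 and 157.5 in Ihhd/d uteri, against 191, 170.5 and 149.6 in Ihhf/f uteri. Its groups overlapped, with a difference of -0.20 (-0.49 to 0.10, adjusted p = 0.372), and its dimmer probe sets differed by -0.049 (adjusted p = 0.833) and -0.10 (adjusted p = 0.745).

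**Figure D4:**
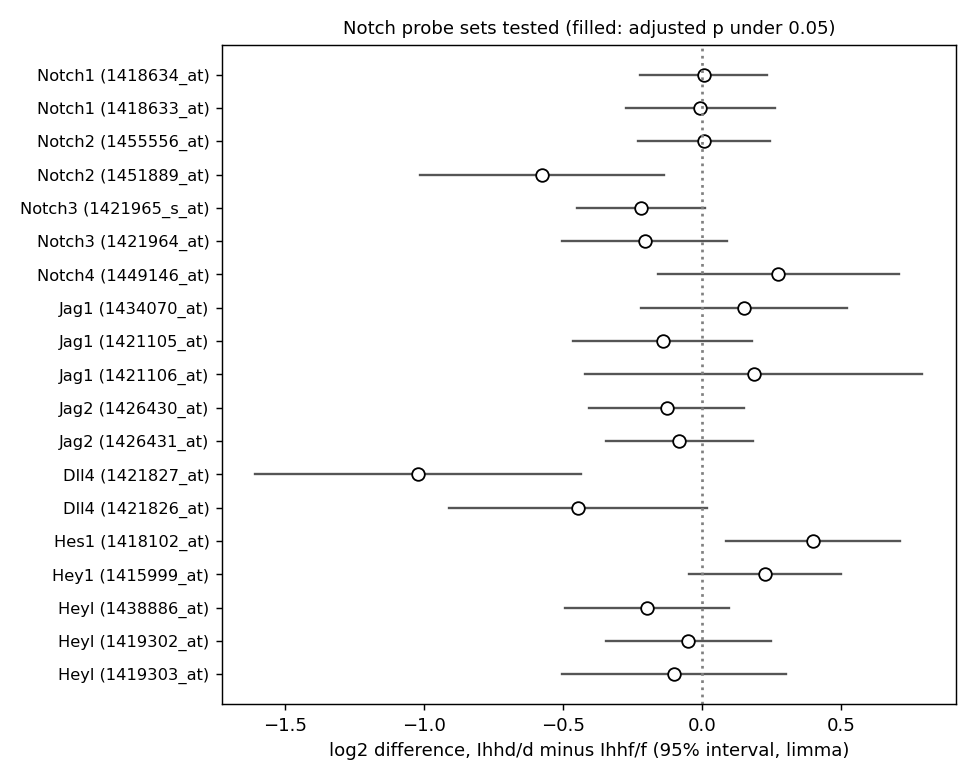
Log2 difference with its 95% interval (horizontal axis, Ihhd/d minus Ihhf/f, limma) for the 19 tested probe sets of the Notch genes (vertical axis, receptors, ligands and targets from top to bottom), filled where the adjusted p was under 0.05. No point is filled, and the intervals of the brighter Dll4, the dimmer Notch2 and the Hes1 probe set do not include 0 before adjustment.

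The Notch probe sets varied more among Ihhf/f than among Ihhd/d arrays. The SD of log2 intensity was larger in Ihhf/f for 18 of 19 tested members, against 75.3% of all tested probe sets, and its median over the members was 0.09 in Ihhd/d and 0.22 in Ihhf/f. Over all tested probe sets these medians were 0.10 and 0.18. The highest of the 6 arrays was Ihhf/f replicate 2 for 8 of the 19 members and Ihhf/f replicate 1 for 5, against 42.5% and 10.5% of all tested probe sets. The lowest was Ihhd/d replicate 2 for 5 and Ihhf/f replicate 1 for another 5, against 14.7% and 18.3%. By Pearson's r of log2 intensity over the 6 arrays, the genes most like the brighter Dll4 probe set were Ephx3 (0.9997), Fes (0.998) and Nhsl1 (0.998). This is a description that includes the difference between genotypes, and 809 of 15529 genes reached an r over 0.95.

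The rest of the pathway was followed through 5 lists of 56 genes, of which 52 were tested at 104 probe sets. Of these probe sets 0 were higher and 4 lower in Ihhd/d uteri, which is 3.85%, against 2.14% of all tested, and the median difference was 0.00052. The calls were 3 probe sets of Ccnd1 and 1 of Dtx4, so they stand for 2 genes. The number of calls was 1 in each of the fits without Ihhd/d replicate 1, Ihhf/f replicate 1 or Ihhf/f replicate 2. These fits called 0.456%, 0.438% and 1.03% of all tested probe sets. Without Ihhd/d replicate 2 the number was 2, against 1.05% of all tested. Without Ihhf/f replicate 3 it was 11 of 104, against 10.6% of all tested, so calls there were more frequent over the whole array.

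Among the 8 genes listed as other Notch targets, measured at 16 tested probe sets, only Ccnd1 passed in the reported fit. Ccnd1 encodes cyclin D1, which drives entry into the cell cycle and is induced by many growth signals besides Notch. Its probe set of lowest p read 867, 934 and 829.9 in Ihhd/d uteri, against 1239, 1296 and 1319 in Ihhf/f uteri. All Ihhd/d arrays were below all Ihhf/f arrays, with a difference of -0.55 (adjusted p = 0.00985), and the others fell by 0.40 (adjusted p = 0.0389) and 1.02 (adjusted p = 0.0206) on the log2 scale. The probe set of lowest p lost its call without Ihhd/d replicate 1 (adjusted p = 0.0555) and with median-centred arrays (0.0612), and the others kept theirs in 9 and 14 of 17 alternatives. All 3 had a negative difference in all 17, some of which cannot change the sign. Hes6, which opposes Hes1 in neurogenesis, differed by 0.36 (adjusted p = 0.126) and, at a dimmer probe set, by -0.085 (0.701), Myc, the growth regulator, by -0.17 (adjusted p = 0.276) and Nrarp, a feedback inhibitor of Notch, by -0.13 (adjusted p = 0.517).

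Among 16 genes of receptor and ligand glycosylation and trafficking, only Dtx4, an E3 ubiquitin ligase of the Deltex family, passed in the reported fit. It read 329, 329 and 432 in Ihhd/d uteri, against 619, 519 and 567 in Ihhf/f uteri. The groups did not overlap, and the difference was -0.65 (adjusted p = 0.0383). The call was lost in 8 of 17 alternatives, among them without Ihhd/d replicate 1 (0.147), Ihhd/d replicate 2 (0.120), Ihhf/f replicate 1 (0.142) and Ihhf/f replicate 2 (0.0680). A dimmer Dtx4 probe set differed by -0.42 (adjusted p = 0.0987). Itch, another ubiquitin ligase, differed by 0.23 (adjusted p = 0.151), Mib1, which ubiquitinates ligands for endocytosis, by 0.38 (adjusted p = 0.238) and Poglut1, an O-glucosyltransferase of the receptors, by -0.18 (adjusted p = 0.260).

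The 3 remaining lists gave 0 calls by limma. For the 5 other ligand genes, 2 of 5 tested probe sets had an unadjusted p under 0.05, against 22.9% of all tested. Dlk1, a non-canonical ligand of immature and adipose cells, was the closest at 0.64 (adjusted p = 0.0828). Dlk1 passed without Ihhf/f replicate 3, at 0.76 (adjusted p = 0.0219), and with array weights, at 0.73 (0.0299). Dll3, a ligand-like inhibitor, differed by -0.28 (adjusted p = 0.278), Dll1, the classical Delta-like ligand, by 0.20 (adjusted p = 0.401) and Dlk2 by -0.14 (adjusted p = 0.508). A dimmer Dlk2 probe set, the other of the 2 counted, differed by -0.45 (adjusted p = 0.198). Of 17 tested probe sets of the receptor proteases, 5 had an unadjusted p under 0.05 (4 higher, 1 lower), against 22.9% of all tested. The median was 0.14, and 10 did not overlap (9 above, 1 below), which is 58.8%, against 31.0% of all tested. Adam10 and Adam17, the proteases that make the first cut in the receptor, are named after their values were seen. Dimmer Adam10 probe sets differed by 0.54 (adjusted p = 0.103) and 0.39 (0.106) and the brightest by 0.10 (0.420). A dimmer Adam17 probe set differed by 0.45 (adjusted p = 0.109) and the brightest by -0.0091 (0.966). The 4 protease genes of lowest p by their brightest probe set all encode subunits of gamma-secretase. At these probe sets Aph1a differed by -0.36 (adjusted p = 0.124), Psenen by 0.14 (0.231), Psen2 by 0.20 (0.339) and Ncstn by 0.14 (0.382). The dimmer Aph1a probe sets had the opposite sign, at 0.28 (adjusted p = 0.203) and 0.056 (0.754), so the negative sign among these 4 genes rests on 1 probe set. Of 34 tested probe sets of the nuclear complex, 7 had an unadjusted p under 0.05, against 22.9% of all tested, and the median difference was 0.068. Fbxw7, which marks the intracellular domain for destruction, differed by -0.50 (adjusted p = 0.114), Tle3, a Groucho-type co-repressor, by 0.30 (0.117), Kdm5a, a histone demethylase that acts with RBPJ, by 0.56 (0.137) and the acetyltransferase Ep300 by 0.24 (0.142). Fbxw7 passed without Ihhf/f replicate 3, at -0.68 (adjusted p = 0.00776), and without both this array and Ihhd/d replicate 2, at -0.61 (0.0181). Its dimmer probe set differed by -0.039 (0.822) in the reported fit. A dimmer Tle3 probe set differed by 0.56 (adjusted p = 0.0542). It passed with the lowest 50% of probe sets left out (0.0476), a robust variance model (0.0452), array weights (0.0325) and the replicate block (0.0370). It also passed without Ihhf/f replicate 3, at 0.62 (0.0220). That last fit called 10.6% of all tested probe sets. In it, single dimmer probe sets of Adam17 (0.56, adjusted p = 0.0315), the ephrin gene Efnb2 (-0.52, 0.0443) and the acetyltransferase gene Kat2b (-0.65, 0.0130) passed too, Kat2b also without both arrays (-0.63, 0.0479). These genes are named after their values were seen, and their brightest probe sets differed by -0.0091, -0.049 and 0.070 in the reported fit.

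**Figure D5:**
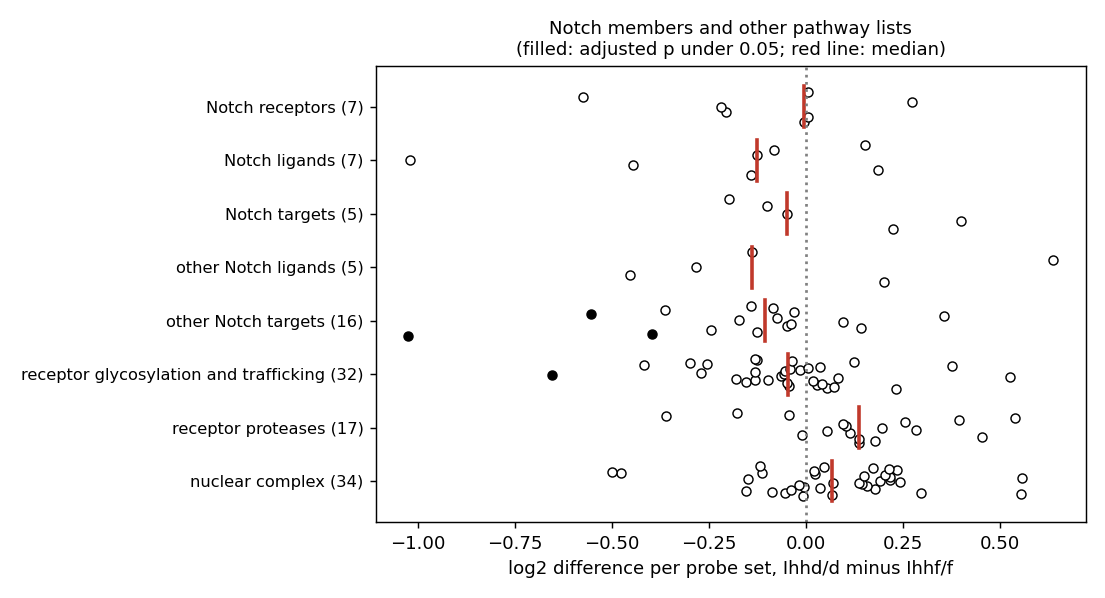
Log2 difference of each tested probe set (horizontal axis, Ihhd/d minus Ihhf/f) in the Notch receptors, ligands and targets and in 5 other pathway lists (vertical axis, number of probe sets in brackets), filled where the adjusted p was under 0.05, with a red line at each median. The 4 filled points are Ccnd1 and Dtx4 probe sets, and the medians lie between -0.14 and 0.14.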

How the data were processed

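The authors deposited 1 processed intensity per probe set and array on a linear scale. How probes were summarised, background-corrected and scaled is not given in the sources used here, and any of these steps could change dim probe sets most. Groups and replicate numbers came from the sample titles. The array's 64 control probe sets were not used. Intensities under 16 were set to 16, log2 was taken, and the authors' scaling was kept because array medians differed by 0.231 at most, under the limit of 0.3. The platform annotation named 34945 probe sets with 1 symbol, 932 with several and 9160 with none, which stayed unnamed, and no symbol changed by Entrez identifier against RefSeq. Genotypes were compared by limma 3.58.1 (lmFit and trended eBayes, with 4 residual degrees of freedom and 5.25 prior ones) in R 4.3.3, and means and SDs are of linear intensities. The members and lists were chosen with earlier results of these data known. The text names all members, each called gene and up to 4 genes of lowest p per pathway list, judged by the brightest probe set, 3 genes most like the member of lowest p, and Ihh, Gli1 and Ptch1. Tested on simulated data of 33777 probe sets for the same comparison, it called 73 of 100 that had been shifted 2-fold, 96 of 100 shifted 4-fold, and 3 unshifted ones. Precision is limited by having 3 arrays per group, and these recovered counts do not carry over to probe sets of larger spread. The brighter Dll4 probe set had an SE of 0.26, against a median of 0.13 over all tested probe sets. Alternatives changed the scaling, floor, filter, variance model, array weights, replicate block and arrays included. Plots were made in Python 3.11.15 with matplotlib 3.10.9.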

Additional observations from a re-analysis of the deposited data

How the results depend on the processing

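The depth behind a probe set is not known from intensities, no detection calls were used, and the number of arrays limits what can be told apart. Over 17 alternatives 0 members were higher, and 1 member was lower with array weights, 1 without both Ihhd/d replicate 2 and Ihhf/f replicate 3, and 0 to 2 when 1 array was left out. The calls over all tested probe sets numbered 374 (1.11%) without an intensity trend, 1411 (4.18%) with array weights and 1981 (5.86%) without both arrays. They numbered 148 to 3582 (0.438% to 10.6%) when 1 array was left out, against 724 (2.14%) as reported. The other pathway probe sets called numbered 1 with median-centred arrays, 2 without the filter, 1 without an intensity trend and 1 to 11 when 1 array was left out, against 4. The replicate numbers did not pair the samples: deviations of same-numbered samples correlated at -0.15, -0.04 and 0.25, and Ihhd/d replicate 1 correlated best with Ihhf/f replicate 2 (0.32). With the replicate number as a block, 1562 probe sets (4.62%) and 1 member were called, the brighter Dll4 probe set (adjusted p = 0.0358). Members that changed sign had an adjusted p over 0.05 in each such setting, and the cause was not tested. With median-centred arrays these were the dimmer Notch1 (0.086), the dimmer Jag2 (0.0094) and the middle Heyl probe set by brightness (0.042). With quantile normalization they were the brighter (-0.034) and dimmer Notch1 (0.061), the brighter Notch2 (-0.022) and the middle (0.047) and dimmest Heyl probe sets (0.0021). With array weights it was the dimmer Notch1 (0.057), and without both arrays the dimmest Jag1 probe set (-0.18). Over the fits without 1 array or without both of these, the brighter Notch1 ranged from -0.092 to 0.10, the dimmer Notch1 from -0.057 to 0.070, the brighter Notch2 from -0.061 to 0.091, the dimmest Jag1 from -0.18 to 0.49, the middle Heyl from -0.14 to 0.051 and the dimmest Heyl from -0.29 to 0.072.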
